A study of Mus musculus with 9 samples.

Results

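Cohesin is the ring-shaped protein complex that holds sister chromatids together, and securin and separase control when it is opened. The 10 genes described here encode the cohesin subunits Rec8, Rad21, Smc1a, Smc1b, Smc3, Stag1, Stag2 and Stag3, the protease separase (Espl1) and its inhibitor securin (Pttg1). They were taken by gene symbol from a table of 24228 usable genes, and each of the 10 had a row. RNA was sequenced from fully grown mouse oocytes still arrested in prophase with an intact nucleus (germinal vesicle).

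Oocytes were collected from C57BL/6 females 46 h after 5 IU of PMSG, which stimulates follicles to grow. WT is the wild type group. Mtor encodes a kinase that controls translation and cell growth. In the group named MG it was deleted conditionally in oocytes by Cre under the Gdf9 promoter, and in the group named MZ by Cre under the Zp3 promoter. Both promoters are active in oocytes, and Gdf9-Cre acts earlier in follicle growth than Zp3-Cre. Each group had 3 libraries. Whether these represent separate animals is not stated, and the p-values therefore measure spread among libraries that may be technical. The series design has mice of 23 days, whereas the sample labels have 6 months.

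In the cohesin ring an SMC1 and an SMC3 protein are joined by a kleisin, to which a STAG protein binds. Meiotic cells have germ-cell counterparts of subunits of the mitotic ring, among them REC8 for the kleisin RAD21, SMC1B for SMC1A, and STAG3 for STAG1 and STAG2. In mouse oocytes, cohesin that is loaded before birth holds bivalents together until the meiotic divisions. Separase then cuts the kleisin, first along chromosome arms and later at centromeres, once the anaphase-promoting complex has destroyed securin and cyclin B.

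Levels are in FPKM, the number of sequenced fragments scaled to transcript length and to library size, so genes can be compared per length. Low FPKM values fell in steps of whole fragments. On 1 kb of transcript, 1 fragment was worth from 1.22 FPKM (MG 3) to 2.23 FPKM (MZ 1). With each gene at its longest annotated transcript, all genes together then came to between 574000 (MG 1) and 1032000 (MZ 2) fragments per library. These measures do not rank the libraries alike. Both use annotated transcript lengths and are approximate, as are all fragment numbers below. Summed over all genes, a library held 652537 ± 67110 FPKM in WT, 498936 ± 64355 in MG and 670216 ± 10778 in MZ (SD, n = 3 each), with the lowest sum, 428329, in MG 3. Mtor itself had 2.95 to 3.33 FPKM in WT, 4.64 to 6.00 in MG and 4.39 to 6.55 in MZ. A value for the whole gene can include exons outside a deleted part, so it does not check the labels, and MG and MZ stand for the libraries labelled so. Gdf9 and Zp3 were both lowest in MG 3, at 7327 and 555 FPKM. Of the 13 oocyte markers, 2 were higher and 11 lower in MG than in WT, and 0 passed in any comparison. The 2 higher ones were Kit (58.5 to 65.5 FPKM in MG, 39.9 to 53.6 in WT) and Nlrp5 (943.6 to 1067.5 in MG, 418.2 to 1033.4 in WT). Together the 13 summed to 22772 to 28338 FPKM in WT, 12043 to 27882 in MG and 29340 to 30281 in MZ, with Gdf9 the largest part. Granulosa and cumulus markers (16 genes, of which Amhr2, Foxl2 and Slc38a3 were listed at 0 in every library) summed to 21.6 to 34.3, 22.0 to 39.7 and 23.95 to 28.3 FPKM in the same order, with Cyp19a1 (8.03 to 25.7) and Inha (0 to 7.18) the highest. Theca and stroma markers (10 genes, led by Dcn and Col3a1, with Lhcgr at 0 throughout) summed to 19.9 to 75.6 FPKM over the 9 libraries, and blood and immune markers (8 genes, led by Cd68 and Hbb-b1) to 2.18 to 34.2. Among the 7 granulosa and cumulus markers tested, 0 passed in any comparison, and 4 were higher and 3 lower in MG than in WT. Kitl, the KIT ligand, had 0.634 ± 0.451 FPKM in WT, 4.30 ± 1.94 in MG and 2.88 ± 0.926 in MZ (SD, n = 3 each), with log2 fold changes of 1.67 for MG versus WT (adjusted p = 0.11) and 1.25 for MZ versus WT (adjusted p = 0.69) and no overlap with WT in either. Nr5a2, a nuclear receptor, had 1.17 ± 0.629, 4.17 ± 1.19 and 2.87 ± 1.73 FPKM in the same order, with 1.27 for MG versus WT (adjusted p = 0.19) and no overlap. Cyp19a1 had -0.79 for MG versus WT (adjusted p = 0.22). Kitl and Nr5a2 were picked after their values were seen. The part of other cells in the results was not tested.

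**Figure D1:**
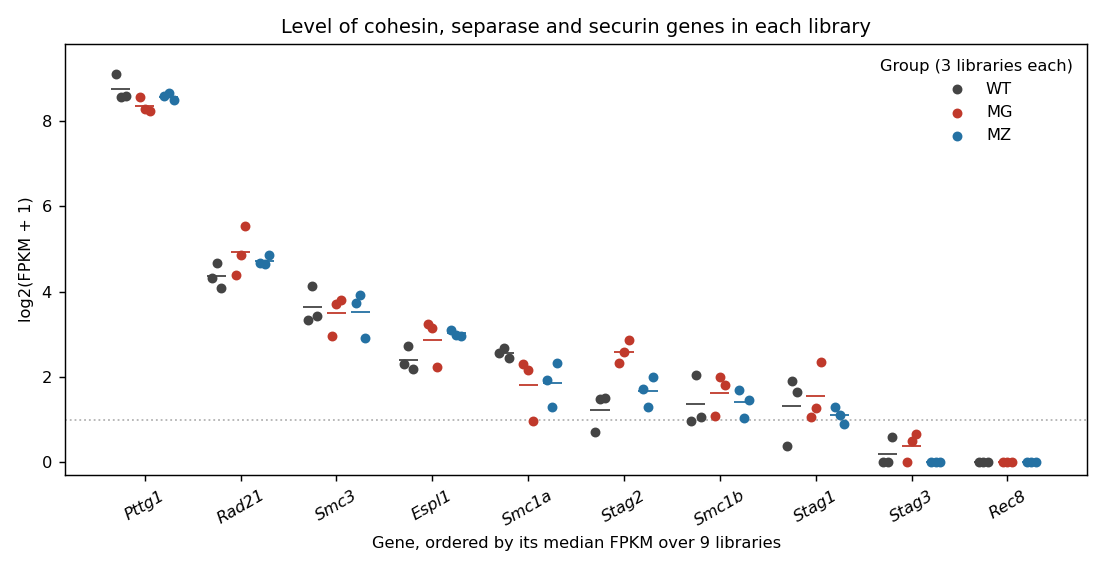
Level of each gene in each library as log2(FPKM + 1), with genes ordered by their median over the 9 libraries. Points are libraries, short bars are group means, and the dotted line marks 1 FPKM. Pttg1 stood above all other genes in every library, Rec8 lay at 0 in every library, and the 3 MG points of Stag2 lay above its WT and MZ points.

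Securin was by far the most abundant of these transcripts. Pttg1 ranged from 297.8 to 547.6 FPKM, and Rad21, next in order, from 16.1 to 45.2 FPKM, so their ranges did not overlap. Among genes with a mean above 0, Pttg1 stood at the 98.2nd percentile in WT and Rad21 at the 77.1st. Below them came Smc3 (median 11.99 FPKM over the 9 libraries), Espl1 (6.81), Smc1a (3.96), Stag2 (2.28), Smc1b (1.77) and Stag1 (1.41). Rad21 was above Smc3 in 9 of 9 libraries, although their ranges over all libraries overlapped. The order below that was less clear. Smc3 was above Espl1 in 7 of 9 libraries, Espl1 above Smc1a in 7, Smc1a above Stag2 in 5, Stag2 above Smc1b in 7 and Smc1b above Stag1 in 6. The order was not the same in each group. In WT Espl1 was above Smc1a in 1 of 3 libraries and Stag2 above Smc1b in 1 of 3, while in MG and in MZ each was above in 3 of 3. Smc1a was above Stag2 in 3 of 3 WT, 0 of 3 MG and 2 of 3 MZ libraries. Rec8, listed at 0 throughout, was not ranked.

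Rec8, the meiotic kleisin (chromosome 14, 55618037 to 55625395, GRCm38, protein coding), was listed at 0 in all 9 libraries. A single fragment would have given between 0.617 FPKM (in MG 3) and 1.12 FPKM (in MZ 1). Cufflinks can also list 0 where estimation failed, and the values do not tell whether this was so for Rec8. The value therefore does not show that the transcript was absent. The same limit holds for every other gene described here as listed at 0. No other gene of the annotation overlaps Rec8.

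Stag3, the meiotic STAG subunit (chromosome 5, 138280240 to 138312393, protein coding), was listed at 0 in WT 1 and WT 2 and at 0.518 FPKM in WT 3. It was at 0 in MG 1, at 0.408 in MG 2 and at 0.592 in MG 3, and at 0 in all 3 MZ libraries. About 1 fragment in WT and 3 in MG lie behind these values, too few to set the groups apart. Rec8 and Stag3 did not reach 1 FPKM in at least 3 libraries, so 8 of the 10 genes were tested.

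Smc1b, the meiotic SMC1 subunit (chromosome 15, 85064689 to 85131964, protein coding), was the germ-cell subunit that was measured best. Its FPKM was 0.960, 3.16 and 1.09 in WT, 1.11, 3.00 and 2.49 in MG, with 2.23, 1.07 and 1.77 in MZ. The 3 groups overlapped, with 10, 17 and 11 fragments behind them in the same order. On the log2 scale the difference was 0.26 for MG versus WT (95% interval -0.72 to 1.24, adjusted p = 0.80) and 0.04 for MZ versus WT (-0.94 to 1.02, adjusted p = 1). Without single libraries the MG value lay between 0.066 (without WT 1) and 0.61 (without WT 2). A processed pseudogene on the opposite strand overlaps the locus, and the sources used here do not say whether counting used strand. Smc1a and Espl1 also overlap a processed pseudogene on the opposite strand, Stag2 an unverified transcript on the opposite strand, and Stag1 5 such loci on both strands. None of these has a row in the table of FPKM values.

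Its mitotic paralogue Smc1a (chromosome X, 152016428 to 152062694, protein coding) had 4.89, 5.37 and 4.44 FPKM in WT, the tightest of its groups. It had 3.96, 3.50 and 0.951 FPKM in MG and 2.84, 1.45 and 4.06 in MZ. All MG and all MZ values lay below all WT values. The means were 4.90 ± 0.463 in WT, 2.80 ± 1.62 in MG and 2.79 ± 1.30 in MZ (SD, n = 3 each), from 31, 20 and 21 fragments. On the log2 scale the difference was -0.74 ± 0.45 for MG versus WT (SE, adjusted p = 0.42) and -0.70 ± 0.45 for MZ versus WT (SE, adjusted p = 0.84). Both comparisons use the same WT libraries. The MG 3 value rests on 3 fragments, and without MG 3 the log2 fold change versus WT was -0.32 (adjusted p = 0.76). For MZ versus WT it was -0.42 (adjusted p = 0.94) without MZ 2.

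Smc1b made up 24.4 ± 11.1% of the summed FPKM of Smc1a and Smc1b in WT, 46.8 ± 25.2% in MG and 38.9 ± 7.44% in MZ (SD, n = 3 each). The highest share, 72.4%, was in MG 3, and the lowest, 16.4%, in WT 1. The groups overlapped, and the exact permutation test over libraries (two-sided, smallest possible p = 0.1) gave p = 0.2 for MG versus WT and for MZ versus WT. In all, 4 such quantities were tested in the 3 pairs of groups, which makes 12 comparisons. The Benjamini-Hochberg adjusted p of these exact tests was 0.34 for both comparisons with WT. Further shares, sums and ratios of these genes were computed but not tested. The 4 were chosen after seeing the data, and the adjustment does not cover that choice. Few fragments set the share: MG 3 held 3 fragments of Smc1a and 8 of Smc1b. The MG minus WT difference of 22.4 percentage points was 9.66 without MG 3 and 34.9 without MG 1.

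**Figure D2:**
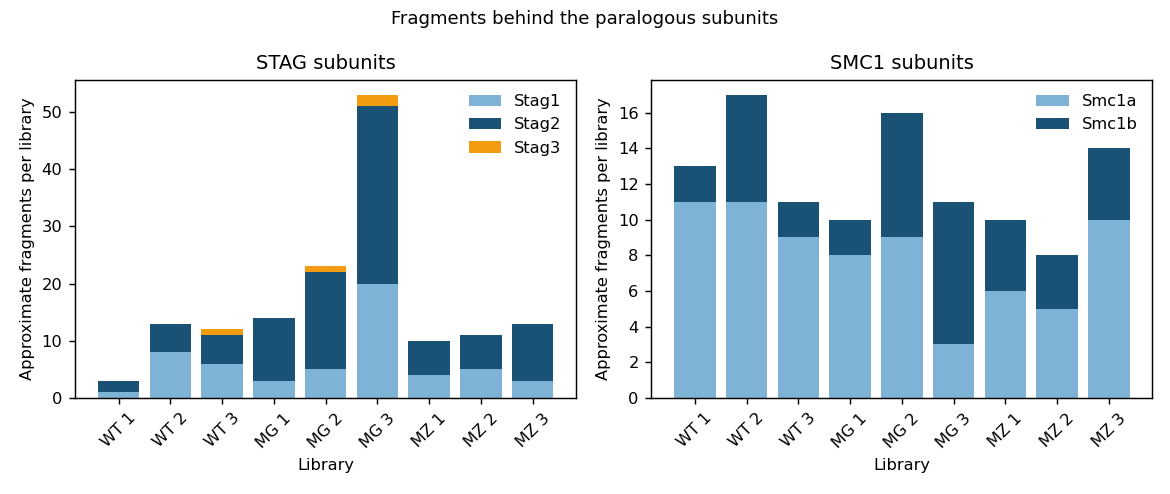
Approximate fragments per library for the 3 STAG genes (left) and the 2 SMC1 genes (right), stacked. The STAG genes rest on 3 fragments in WT 1 and on 53 in MG 3, mostly of Stag2, while the SMC1 genes rest on 8 to 17 fragments in every library.

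Stag2, the STAG subunit of the mitotic ring whose gene lies on the X chromosome (42149317 to 42277185, protein coding), showed the largest fold change of the 8 tested genes between MG and WT. It had 0.652, 1.79 and 1.85 FPKM in WT, 4.03, 4.96 and 6.35 in MG, with 2.28, 1.46 and 3.01 in MZ. Every MG value lay above every WT and every MZ value, while MZ and WT overlapped. The means were 1.43 ± 0.676 in WT, 5.11 ± 1.17 in MG and 2.25 ± 0.777 in MZ (SD, n = 3 each). About 12 fragments lie behind the WT mean, 59 behind the MG mean and 22 behind the MZ mean. These are bulk libraries, in which a change in the number of expressing cells and a change per cell cannot be told apart.

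The log2 fold change of Stag2 was 1.36 for MG versus WT (95% interval 0.50 to 2.21), with an unadjusted p of 0.0052 and a adjusted p of 0.13. It did not pass the threshold of an adjusted p under 0.05, and was higher in 3 of 3 MG libraries. For MG versus MZ the log2 fold change was 0.92 (0.06 to 1.78, adjusted p = 0.24), and for MZ versus WT it was 0.43 (-0.43 to 1.29, adjusted p = 0.89). The MZ to WT value was 0.17 without WT 1 and 0.27 without MZ 3. In the 18 alternative fits that kept the gene, the MG to WT value stayed between 0.65 and 1.87 on the log2 scale. The adjusted p lay between 0.085 and 0.30 there, so it passed in 0 of 18. The lowest value came with a pseudocount of 5 and the highest with a pseudocount of 0.1. In the authors' deposited table the log2 fold change was 1.83 with a p-value and q-value of 1. Such a listing can stand for a gene that was not tested.

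Stag1, the other mitotic STAG gene (chromosome 9, 100597798 to 100959375, protein coding), varied more from library to library. Its FPKM was 0.315, 2.77 and 2.14 in WT, 1.09, 1.41 and 4.08 in MG, with 1.46, 1.17 and 0.871 in MZ. The groups overlapped, and the values rest on 15, 28 and 12 fragments, of which 20 were in MG 3. On the log2 scale the difference was 0.24 for MG versus WT (adjusted p = 0.85) and -0.21 for MZ versus WT (adjusted p = 0.96). Without MG 3 the first of these was -0.15 (adjusted p = 0.92), and without WT 1 it was -0.22 (adjusted p = 0.87). The second was -0.68 without WT 1 and 0.084 without WT 2. Whether the changes of Stag1 and Stag2 differ was not tested.

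The summed FPKM of Stag1, Stag2 and Stag3 was 3.35 ± 2.06 in WT, 7.64 ± 3.05 in MG and 3.42 ± 0.688 in MZ (SD, n = 3 each). The lowest MG sum, 5.12, exceeded the highest WT sum, 4.56, and the highest MZ sum, 3.88. The exact permutation test (two-sided) gave p = 0.1 for MG versus WT and for MG versus MZ, the smallest p that 3 against 3 libraries allow, with an adjusted p of 0.3 over the 12 comparisons. Without MG 3 the difference fell from 4.29 to 2.60 FPKM versus WT and from 4.22 to 2.53 FPKM versus MZ. Stag2 made up 39.3 to 67.5% of the sum in WT, 57.6 to 78.7% in MG and 55.4 to 77.6% in MZ, and these ranges overlapped.

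The genes whose pattern over the 9 libraries was most like that of Stag2 were sought among 6117 tested genes with a mean of at least 5 FPKM. The measure was the mean absolute difference of log2(FPKM + 1) after each gene was centred on its own mean, with a median of 0.65 over all candidates. Ing5, a chromatin reader of the ING family, was the closest at 0.16, with 4.95 ± 1.81 FPKM in WT, 11.8 ± 0.864 in MG and 7.18 ± 0.458 in MZ (SD, n = 3 each). Nras, a RAS GTPase, followed at 0.18, and Rbpj, the DNA-binding factor of Notch signalling, at 0.20. None of the 3 passed for MG versus WT (adjusted p = 0.12, 0.083 and 0.14 for Ing5, Nras and Rbpj). The closest of many genes will be similar in part by selection, so this is a description.

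Rad21, the mitotic kleisin (chromosome 15, 51962240 to 51991747, protein coding), was the most abundant cohesin subunit. It had 19.1, 24.5 and 16.1 FPKM in WT, 20.1, 28.2 and 45.2 in MG, with 24.7, 23.9 and 28.1 in MZ. The groups overlapped, with the highest value in MG 3, and 109, 235 and 166 fragments lie behind them. On the log2 scale the difference was 0.57 for MG versus WT (95% interval -0.08 to 1.21, adjusted p = 0.35) and 0.36 for MZ versus WT (-0.28 to 1.01, adjusted p = 0.88). Without MG 3 the first was 0.27 (adjusted p = 0.68), and after scaling all libraries to an equal FPKM sum it was 0.95 (adjusted p = 0.17). Without WT 3 the MZ to WT value was 0.23 (adjusted p = 0.99). The authors' deposited table lists Rad21 with p = 0.018 and q = 0.092 for MG versus WT. Of the 10 genes only Rad21 and Pttg1 had a p other than 1 there, and the q of Pttg1 was 0.24.

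Smc3, the SMC subunit common to all cohesin rings (chromosome 19, 53600398 to 53645833, protein coding), had 9.08, 16.5 and 9.86 FPKM in WT, 6.84, 11.99 and 13.1 in MG, with 12.4, 14.1 and 6.55 in MZ. The groups overlapped throughout. On the log2 scale the difference was -0.14 ± 0.37 for MG versus WT and -0.11 ± 0.37 for MZ versus WT (SE, adjusted p = 0.89 and 0.98). The first turned to 0.22 after scaling all libraries to an equal FPKM sum, and the 95% interval of -0.95 to 0.67 holds changes of either sign.

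The ratio of Rad21 to Smc3 was 1.74 ± 0.320 in WT, 2.92 ± 0.554 in MG and 2.66 ± 1.42 in MZ (SD, n = 3 each). The lowest MG ratio, 2.35, was above the highest WT ratio, 2.10, and MZ overlapped both. The exact permutation test (two-sided) gave p = 0.1 for MG versus WT, with an adjusted p of 0.3 over the 12 comparisons.

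Espl1, separase (chromosome 15, 102296266 to 102324357, protein coding), had 3.98, 5.62 and 3.55 FPKM in WT, 8.53, 7.88 and 3.69 in MG, with 7.61, 6.98 and 6.81 in MZ. Every MZ library exceeded every WT library. In MG, 2 libraries were above WT, and MG 3 lay within the WT range. On the log2 scale the difference was 0.61 for MZ versus WT (95% interval -0.16 to 1.39, adjusted p = 0.81) and 0.47 for MG versus WT (-0.31 to 1.24, adjusted p = 0.53). The latter was 0.79 without MG 3 (adjusted p = 0.31) and 0.28 without MG 1 (adjusted p = 0.75). About 41, 74 and 79 fragments lie behind WT, MG and MZ.

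Pttg1, securin (chromosome 11, 43420250 to 43426251, protein coding), had 547.6, 377.4 and 384.2 FPKM in WT, 375.8, 311.4 and 297.8 in MG, with 379.6, 400.9 and 356.8 in MZ. All MG values lay below all WT values, the nearest pair being 375.8 in MG 1 and 377.4 in WT 2, and MZ overlapped both groups. The means were 436.4 ± 96.4 in WT, 328.3 ± 41.7 in MG and 379.1 ± 22.1 in MZ (SD, n = 3 each). Each library held between 251 and 421 fragments by the longest RefSeq-linked transcript, or 85 to 143 by the shortest.

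The log2 fold change of Pttg1 was -0.40 for MG versus WT (95% interval -0.81 to 0.02, adjusted p = 0.31), -0.18 for MZ versus WT (adjusted p = 0.90) and -0.21 for MG versus MZ (adjusted p = 0.61). The difference depended on how libraries were scaled. As a share of that sum Pttg1 was 0.0665 ± 0.0089% in WT, 0.0660 ± 0.0048% in MG and 0.0565 ± 0.0026% in MZ (SD, n = 3 each). Scaling all libraries to an equal sum, which moved the median of all tested genes from 0.04 to 0.36, gave an MG to WT value of -0.0057. With quantile normalization it was 0.085, while upper quartile scaling left it at -0.35 (adjusted p = 0.37). Without WT 1, the library with the highest Pttg1 value, it was -0.22 (adjusted p = 0.59), and the MZ to WT value was -0.0082 (adjusted p = 0.99). Without WT 2 the MZ to WT value was -0.28 (adjusted p = 0.88).

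The ratio of Pttg1 to Espl1, the inhibitor to its protease, was 137.6, 67.2 and 108.2 in WT, 44.0, 39.5 and 80.8 in MG, with 49.9, 57.5 and 52.4 in MZ. The MZ ratios lay below all WT ratios, and in MG only MG 3 overlapped WT. The means were 104.3 ± 35.4, 54.8 ± 22.6 and 53.2 ± 3.86 (SD, n = 3 each). The exact permutation test (two-sided) gave p = 0.1 for MZ versus WT and p = 0.2 for MG versus WT, with an adjusted p of 0.3 and 0.34 over the 12 comparisons. The MG minus WT difference of -49.6 was -32.9 without WT 1. The WT libraries are shared by both, and scaling of a library does not alter the ratio.

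**Figure D3:**
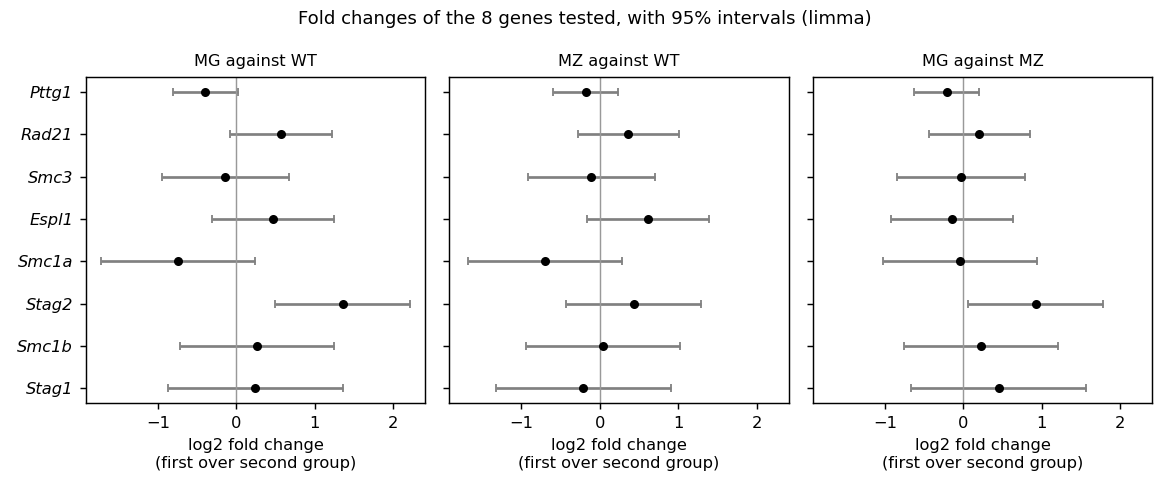
Log2 fold change of each tested gene on the log2(FPKM + 1) scale, with 95% intervals from limma, for MG versus WT (left), MZ versus WT (middle) and MG versus MZ (right). The interval of Stag2 lies above 0 for MG versus WT (0.50 to 2.21) and MG versus MZ (0.06 to 1.78), before adjustment for the 10801 genes tested, and the other intervals all include 0.

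Over the 8 tested genes, 0 passed limma at an adjusted p under 0.05 in any of the 3 comparisons. Among all 10801 tested genes, 0.343% passed for MG versus WT, 0.037% for MZ versus WT and 0.13% for MG versus MZ. At an unadjusted p under 0.05 there was 1 gene of 8 (Stag2) for MG versus WT, where 17.7% of all tested genes reached it, 0 of 8 for MZ versus WT (6.3% of all) and 1 of 8 (Stag2) for MG versus MZ (17.6% of all). Values of the paired groups did not overlap for Stag2, Smc1a and Pttg1 in MG versus WT, for Smc1a and Espl1 in MZ versus WT, and for Stag2 in MG versus MZ. That is 3, 2 and 1 of 8 genes, where 21.5%, 12.2% and 25.2% of all tested genes showed no overlap. These counts were set beside the shares for all genes and were not tested. Fold changes were above 0 for 5, 4 and 4 of the 8 genes in the same order of comparisons, and for 53%, 51.1% and 53.3% of all tested genes. The median log2 fold changes of the 8 genes were 0.25, -0.03 and 0.09 in the same order, and those of all tested genes were 0.04, 0.01 and 0.04. By the authors' deposited values, in their table, 0 of the 10 genes had a q under 0.05 in any comparison, where 1.84%, 0.351% and 4.03% of all genes did. Of their 30 p-values 24 were listed as 1, which can stand for a gene that was not tested. Only Rad21 and Pttg1 had other values, so for the remaining genes the count of 0 is no result.

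Among genes for loading, release and acetylation, Cdca5 and Esco2 were the highest. They, and also Esco1 and Wapal, were above every ring subunit in mean FPKM in each group. Cdca5 (sororin, which protects cohesin from release) had 461.9 ± 148.3 FPKM in WT, 353.8 ± 41.8 in MG and 573.5 ± 49.0 in MZ (SD, n = 3 each). Esco2, an acetyltransferase that acts on SMC3, had 205.6 ± 34.2, 222.8 ± 17.8 and 181.4 ± 12.04 FPKM in the same order. The cohesin loader Nipbl had 4.19 ± 1.72, 8.81 ± 1.80 and 5.98 ± 1.04 FPKM, and Pds5b, a regulator bound to the ring, 1.01 ± 0.594, 2.91 ± 0.977 and 1.51 ± 0.374. Of the 11 genes of this list with rows 9 were tested, and 0 passed in any comparison. For MG versus WT 7 were positive and 2 negative, with a median of 0.28. Nipbl had a log2 fold change of 0.96 there (adjusted p = 0.19) and Pds5b 0.96 (adjusted p = 0.24), and the MG values of both lay above all WT values. Cdca5 had -0.70 for MG versus MZ (adjusted p = 0.14), with no overlap.

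Of 27 genes that protect cohesin or control separase 26 were tested and 0 passed. For MG versus WT 8 were positive and 18 negative, with a median of -0.16. Ccnb1, cyclin B1, which with its kinase also inhibits separase, had 888.4 ± 84.6 FPKM in WT, 551.3 ± 113.7 in MG and 776.8 ± 31.9 in MZ (SD, n = 3 each). Its MG values lay below all WT and MZ values, with a log2 fold change of -0.71 versus WT (adjusted p = 0.11) and -0.52 versus MZ (adjusted p = 0.18). Aurkc, a germ-cell Aurora kinase of the chromosomal passenger complex, had 90.8 ± 9.69, 53.5 ± 17.1 and 79.3 ± 8.96 FPKM (log2 fold change -0.80 for MG versus WT, adjusted p = 0.14). Plk1, a kinase that phosphorylates cohesin, had 81.2 ± 24.7, 55.7 ± 6.14 and 94.4 ± 7.40 FPKM (-0.75 for MG versus MZ, adjusted p = 0.13). Sgol1, a shugoshin, had 21.8 ± 6.58, 20.3 ± 7.89 and 13.2 ± 3.61 FPKM, and Ppp2r5c, a subunit of the phosphatase that shugoshins recruit, 10.8 ± 4.56, 19.9 ± 6.05 and 16.2 ± 1.71. These had the smallest p for MZ versus WT in the list, with log2 fold changes of -0.67 and 0.62 (adjusted p = 0.79 for each). Meikin, a meiotic kinetochore gene, was listed at 0 in all libraries, which does not show that its transcript was absent.

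The other SMC complexes were condensin, which compacts chromosomes, and Smc5/6, which acts in DNA repair. Of 14 genes 13 were tested and 0 passed, with medians of -0.21, -0.18 and -0.05 for MG versus WT, MZ versus WT and MG versus MZ. Smc2, a condensin subunit, had 2.29 ± 2.04 FPKM in WT, 6.76 ± 2.80 in MG and 1.38 ± 0.849 in MZ (SD, n = 3 each), with a log2 fold change of 1.71 for MG versus MZ (adjusted p = 0.13). Smc5 had 1.02 ± 0.883, 3.25 ± 0.842 and 2.14 ± 0.352 FPKM (1.18 for MG versus WT, adjusted p = 0.21). Nsmce1, a subunit of Smc5/6, had 16.1 ± 6.71, 5.28 ± 3.41 and 14.7 ± 5.80 FPKM (-1.57 for MG versus WT, adjusted p = 0.15). Ncapd3, of condensin II, had 3.60 ± 1.47, 2.21 ± 1.30 and 1.84 ± 1.20 FPKM (-0.73 for MZ versus WT, adjusted p = 0.84).

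**Figure D4:**
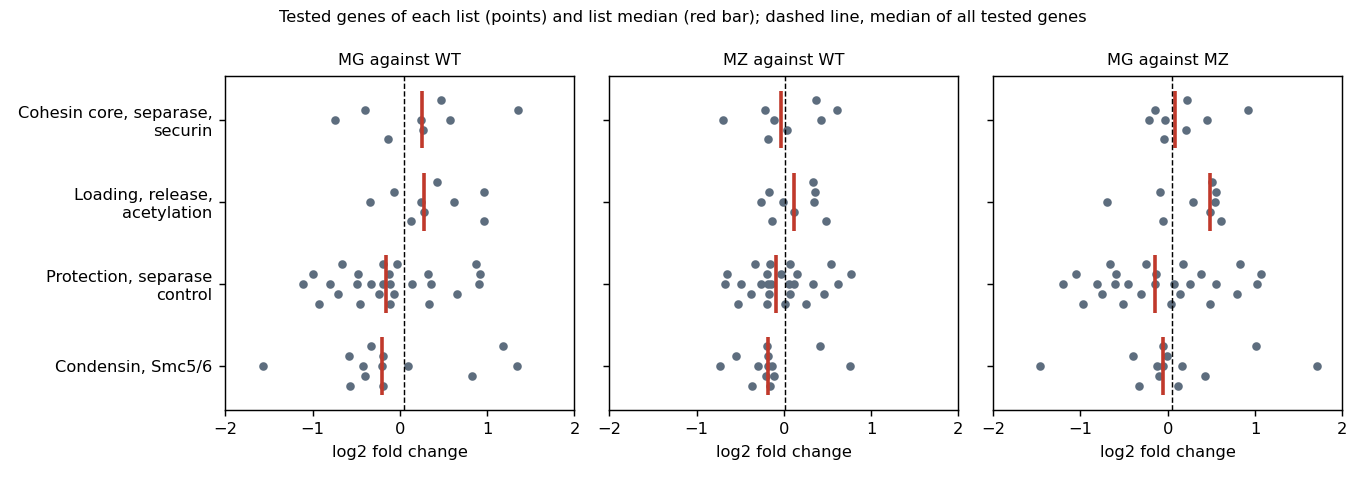
Log2 fold change of each tested gene (points) in the 4 lists, with the list median as a red bar and the median of all tested genes as a dashed line. Points are spread vertically only for legibility. For MG versus WT the list medians lay at 0.25, 0.28, -0.16 and -0.21 from top to bottom, and genes of each list fell on both sides of 0.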

How the data were processed

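RNA of fully grown oocytes was amplified by Smart-seq2 and made into libraries with a NEBNext Ultra kit, per the labels' protocols, and read as 150 bp pairs. The authors aligned reads to mm10 with TopHat2 2.0.13 and computed the deposited FPKM with Cufflinks 2.2.1 (per the submitters' processing notes). The authors' log2 fold changes, p-values and q-values, deposited in the same table, came from Cuffdiff with its defaults, as the series design has it. Of 24255 rows, 27 with a symbol turned into a date were left out. Coordinates and transcript lengths are from GENCODE M21 (GRCm38).

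The value of 1 fragment was estimated in each library from low values of 2220 genes with a single transcript of at least 1500 bp, less 200 bp. Of the low values, 81.0 to 87.0% lay within 15% of it. The estimate was chosen to place many values near 1 fragment, and low values were defined by it. This share is therefore no independent check. Log2(FPKM + 1) of the 10801 genes that reached FPKM 1 in 3 or more libraries was fitted with limma 3.58.1 in R 4.3.3 (variance trend, 9 libraries in 1 fit, 6 residual degrees of freedom). Tests were two-sided with Benjamini-Hochberg adjustment over all genes tested and a threshold of 0.05. The fold change on this scale understates the change of low genes. The steps were tested on simulated data, which had the same spread and the same transcript length for all genes. The libraries here differ in this, so that run does not show how many true changes were missed. Ratios and sums were compared with exact permutation tests over libraries. Genes and lists were chosen with earlier results of these data known. Named beside the 10 genes were, per list and comparison, the pair with the smallest p and any gene that passed, the highest markers, and the 3 genes most like the member with the largest fold change. Other genes were named after their values were seen. Alternatives covered pseudocount, filter, scaling, variance trend, libraries in the fit, a replicate block and leaving out each library; the ratios and their alternatives were chosen after seeing the data.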

Additional observations from a re-analysis of the deposited data

How the results depend on the processing

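No alternative gave any of the 8 tested genes an adjusted p under 0.05 in limma: all 57 counts of members called were 0. Of 444 refitted fold changes 27 turned sign, in 11 of 24 results, none of which had passed. For MG versus WT, Smc3 was 0.22 with libraries scaled to an equal FPKM sum, and Stag1 was -0.030 and Pttg1 0.085 with quantile normalization. For MZ versus WT, Smc1b was -0.0031 with equal sums and -0.012 with quantile normalization. For MG versus MZ, equal sums gave Smc1a 0.24, Smc3 0.37, Espl1 0.23 and Pttg1 0.22, and quantile normalization gave Pttg1 0.28. Leaving out each library in turn, MG versus WT ranged from -0.30 to 0.12 for Smc3 and from -0.22 to 0.54 for Stag1. MZ versus WT ranged from -0.16 to 0.39 for Smc1b, -0.30 to 0.20 for Smc3 and -0.68 to 0.084 for Stag1. MG versus MZ ranged from -0.092 to 0.47 for Rad21, -0.33 to 0.38 for Smc1a, -0.34 to 0.23 for Smc3 and -0.33 to 0.18 for Espl1. Of the sums and ratios, the MZ minus WT difference in summed STAG FPKM was -0.15 with equal sums and ranged from -1.12 to 0.68 without single libraries. The MG minus MZ difference was -0.64 for the ratio of Pttg1 to Espl1 with a pseudocount of 1. Without single libraries it ranged from -11.4 to 9.16 for that ratio, from -0.22 to 1.08 for Rad21 to Smc3 and from -4.87 to 20.4 percentage points for the Smc1b share. The cause was not tested.

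The number of all genes called moved more. For MG versus WT (37) it was 17 with no filter, 66 with equal sums, 21 with quantile normalization, 5 in a fit of only those 6 libraries and 3 (without WT 3) to 24 (without MG 3) when single libraries were left out. For MZ versus WT (4) it was 2 with a pseudocount of 0.1 and with no filter, 0 with a filter at 5 FPKM, 1 with equal sums and with quantile normalization, 7 with no variance trend and 0 to 6 without single libraries. For MG versus MZ (14) it was 6 and 30 with pseudocounts of 0.1 and 5, 9 with no filter and with no variance trend, 31 with equal sums, 100 in a fit of only those libraries and 0 to 214 without single libraries, the highest without WT 1.

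With the replicate number as a block (replicate block), 13, 0 and 159 genes were called in the same order, and Stag2 had 1.36 for MG versus WT (adjusted p = 0.15). Deviations of same-numbered libraries correlated between -0.0702 and 0.0731 over 9 pairs, and those of other-numbered libraries between -0.114 and 0.0817 over 18 pairs. A correlation over all genes cannot show whether same-numbered libraries were prepared together, and this was not tested. At 12 to 59 fragments a group for Stag2, and fewer for Smc1b and Stag3, depth limits these comparisons.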
